A study of Mus musculus with 10 samples.

Results

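The neutrophil granule genes described here were 10 genes chosen by name from the 28185 genes of the deposited table. They comprised 4 azurophil granule enzymes (Mpo, Elane, Prtn3 and Ctsg), 4 specific granule proteins (Ltf, Camp, Ngp and Lcn2), 1 surface receptor (Cd177) and 1 nuclear enzyme (Padi4). Of these, 9 had a row in the table. Ctsg was not analysed here. Genes entered the test when their mean over all libraries reached 10 normalized counts, and 7 of the 10 did so (Prtn3, Ltf, Camp, Ngp, Lcn2, Cd177 and Padi4). Mpo and Elane stayed below it and are given as reads. Prtn3 and Camp passed only through their blood levels, since their heart means were 4.81 and 6.10 normalized counts.

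The libraries were bulk RNA-seq of Ly6G+ cells enriched with magnetic anti-Ly6G beads from male C57Bl/6J mice of 12 to 16 weeks, all of which had a ligated left coronary artery and were sampled at day 3. The MI group (3 libraries) and the MI + MSC group (3 libraries) came from the infarcted left ventricle, and the Blood group (2 libraries) and the Blood + MSC group (2 libraries) from cardiac puncture. Mice of the MI + MSC and Blood + MSC groups had received 1000000 bone marrow mesenchymal stromal cells (MSCs) of the same strain under the skin at each of 3 sites, 30 to 60 minutes after ligation, while the other mice had received none. Libraries are named by group and by the number in their label. The labels do not tie heart and blood libraries to a mouse, so all libraries were treated as separate and the p-values measure the spread between these libraries. No library of a mouse without infarction was used, so each difference described is between infarcted mice.

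Neutrophils store their antimicrobial and proteolytic proteins in granules that are filled one class after another during maturation in the bone marrow. Azurophil granules, with myeloperoxidase and the serine proteases, are filled in promyelocytes. Specific granules, with lactoferrin, cathelicidin and lipocalin, are filled in myelocytes and metamyelocytes under the transcription factor C/EBP epsilon. The transcripts decline as the cell matures, so that a circulating neutrophil carries the proteins while holding little of the mRNA, and mRNA levels do not measure granule content. After infarction, neutrophils enter the ischemic muscle within the first days and release these granules there.

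Depth differed widely between libraries. The recovered reads on genes ranged from 148594 in MI 13 to 8602711 in Blood + MSC 24, and Blood 21 held 268860. Low values of MI 13 and Blood 21 are coarse, since 1 read stood for 8.40 and 7.07 normalized counts there and for at most 2.30 elsewhere. Blood 21 also stood apart by its platelet markers, which summed to 30925 normalized counts against 513 to 1768 in the other libraries. The 14 neutrophil markers, none of which was at 0 in any library, summed to between 3732 and 23875 in heart libraries and between 21438 and 54436 in blood libraries. The 10 cardiomyocyte markers summed to between 3310 and 24802 in heart libraries and to between 22.6 and 63.6 in blood libraries. The 12 monocyte and macrophage markers summed to between 2925 and 11719 in the heart and between 6036 and 8436 in blood. In such bulk samples, fewer neutrophils and less RNA of a gene per neutrophil cannot be told apart. This bears on each heart to blood difference below, and its part in them was not tested.

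The promoters of 3 specific granule genes that moved together in blood (Ltf, Camp and Ngp) are shown, together with Lcn2, which moved less, and Padi4, which held the steadiest tissue difference. Each run is the 250 bases before the RefSeq start of the gene, in the gene's own direction, from the RefSeq table for GRCm38.p6. Each was found once by exact match in GRCm39, at chr9:110848110-110848359 (plus strand) for Ltf, chr9:109678525-109678774 (minus strand) for Camp, chr9:110248626-110248875 (plus strand) for Ngp, chr2:32277752-32278001 (minus strand) for Lcn2 and chr4:140501515-140501764 (minus strand) for Padi4. Capitals mark GCAAT or its reverse complement ATTGC, the half-site recognised by the C/EBP family.
Ltf: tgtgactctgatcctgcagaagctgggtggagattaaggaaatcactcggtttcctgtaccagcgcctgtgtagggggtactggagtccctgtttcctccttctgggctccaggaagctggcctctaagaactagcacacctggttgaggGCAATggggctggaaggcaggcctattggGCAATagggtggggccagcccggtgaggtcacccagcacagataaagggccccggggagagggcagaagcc
Camp: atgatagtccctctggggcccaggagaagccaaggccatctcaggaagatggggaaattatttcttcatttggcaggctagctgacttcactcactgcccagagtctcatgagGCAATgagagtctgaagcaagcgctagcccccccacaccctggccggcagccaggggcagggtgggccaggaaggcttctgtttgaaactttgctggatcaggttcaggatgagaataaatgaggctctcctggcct
Ngp: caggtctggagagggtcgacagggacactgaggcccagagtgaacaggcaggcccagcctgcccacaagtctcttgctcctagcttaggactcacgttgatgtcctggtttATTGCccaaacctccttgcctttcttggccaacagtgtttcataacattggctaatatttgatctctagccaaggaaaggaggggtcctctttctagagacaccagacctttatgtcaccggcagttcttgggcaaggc
Lcn2: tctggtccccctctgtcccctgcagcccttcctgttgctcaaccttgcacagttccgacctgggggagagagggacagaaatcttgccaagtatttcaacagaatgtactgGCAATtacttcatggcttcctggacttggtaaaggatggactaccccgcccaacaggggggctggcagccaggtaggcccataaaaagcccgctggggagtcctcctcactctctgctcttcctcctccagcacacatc
Padi4: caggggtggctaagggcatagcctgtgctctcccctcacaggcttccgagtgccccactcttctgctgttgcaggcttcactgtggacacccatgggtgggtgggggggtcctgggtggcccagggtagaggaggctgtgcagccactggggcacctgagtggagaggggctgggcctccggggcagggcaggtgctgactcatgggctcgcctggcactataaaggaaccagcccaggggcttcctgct

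The GCAAT half-site was searched on both strands, with GGCAAT (which overlaps it) and TTNNGCAA (which can overlap both). These motifs were chosen after the promoters had been seen. GCAAT was present in 6 of the 10 members' promoters and in 23.1% of the 32851 promoter stretches of this length in the table. GGCAAT was present in 5 (Elane, Ltf, Camp, Ngp and Lcn2), against 7.06% of all stretches, and TTNNGCAA in 3 (Ltf, Ngp and Lcn2), against 9.56%. Ltf had GCAAT at 100 to 96 and again at 71 to 67 bases before the start. Camp, Ngp and Lcn2 had it at nearly the same distance, at 137 to 133, 139 to 135 and 139 to 135 bases, on the minus strand in Ngp and on the plus strand of the gene in the other two. None of these letters was found in the windows of Prtn3, Ctsg, Cd177 and Padi4. A match is a description of the sequence and not a binding site. Distances were counted from the RefSeq starts, which differ from the gene starts given below. By those gene coordinates, the Lcn2 and Padi4 windows lie inside the gene, and those of Ltf, Camp and Ngp overlap its start. The nearly equal distances thus hold for the RefSeq starts only.

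Most of the 7 tested genes were called lower in Ly6G+ cells of the infarcted heart than in those of the blood when all libraries of each tissue were used, with Ltf as the exception in limma. In the limma fit, a gene was called at a Benjamini-Hochberg adjusted p under 0.05 and an absolute log2 difference of at least 0.5. In MI versus Blood, 4 of the 7 were called lower (Ngp, Lcn2, Cd177 and Padi4), while 13.5% of all 11549 tested genes were called lower. In MI + MSC versus Blood + MSC, 3 of the 7 were called lower (Prtn3, Lcn2 and Padi4), against 5.85% of all tested genes. The median difference of the 7 was -3.17 and -2.79 on the log2 scale, while that of all tested genes was 0.15 and 0.09. These medians are the values of Padi4 and Camp, and that of Camp depends on the pseudocount. They leave out Mpo and Elane, which without a filter differed by 1.53 and 0.44 in MI versus Blood. In MI + MSC versus Blood + MSC these 2 genes differed by 0.93 and 0.16. With all 6 heart libraries set against all 4 blood libraries, 6 of the 7 were called lower (all but Ltf), while 18.1% of all tested genes were called lower and 25.3% higher. With no filter on low values, which brings in Mpo and Elane, the same count was 6 of 9, beside 7.16% of all genes called lower. Likewise without a filter, it was 4 of 9 in MI versus Blood and 3 of 9 in MI + MSC versus Blood + MSC, beside 4.89% and 1.81%. On recovered reads, edgeR and DESeq2 each called 7 of the 7 lower in this comparison (beside 25.6% and 20.8% of all tested genes) and 6, all but Prtn3, in MI versus Blood (beside 17.8% and 15.7%). The heart and blood values of Prtn3, Lcn2, Cd177 and Padi4 did not overlap, as was so, in the lower direction, for 14% of all tested genes. Without Blood 22, 1 member (Padi4) was called lower in MI than in Blood, and without Blood 21 there were 6, beside 9.85% and 14% of all tested genes. Without Blood 22 or without Blood 21, 7 members were called lower in MI + MSC than in Blood + MSC (beside 10.4% and 10.5% of all tested genes), where the differences stay the same and the spread shared by all groups changes. These counts describe a list in which members entered the test partly through high blood values. In this limma fit of all libraries, no member was called between mice with and without MSCs in either tissue, and 0% of all tested genes were.

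**Figure D1:**
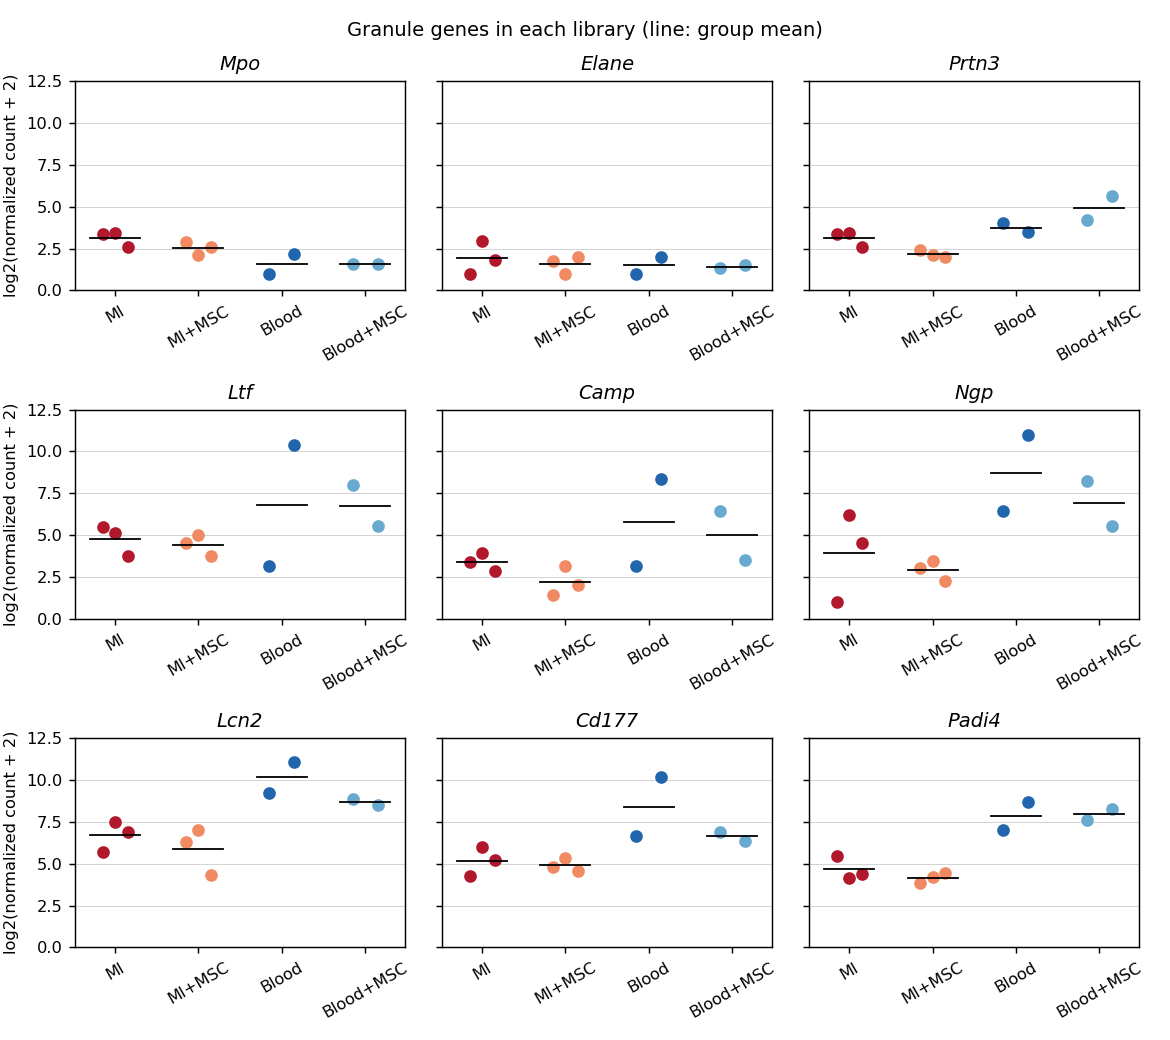
Levels of the 9 measured granule genes in each library, as log2(normalized count + 2) on the vertical axis, by group on the horizontal axis; points are libraries and lines are group means. Padi4 and Lcn2 are lower in all 6 heart libraries than in all 4 blood libraries, while Mpo and Elane lie near the bottom of the scale and Ltf, Camp and Ngp differ widely between the 2 Blood libraries.

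Transcript levels per kilobase of exon, which allow genes to be set side by side, placed Ngp and Lcn2 first and the azurophil enzymes last in the MI and Blood groups. In the Blood group the mean normalized count per kilobase was 769 for Ngp, 527 for Lcn2, 215 for Cd177, 193 for Camp, 187 for Ltf, 46.5 for Padi4, 6.71 for Prtn3, 0.988 for Elane and 0.379 for Mpo. In the MI group the same levels per kilobase were 43.2 for Lcn2, 22.7 for Ngp, 13.3 for Cd177, 10.3 for Camp, 8.15 for Ltf, 4.50 for Padi4, 4.07 for Prtn3, 2.47 for Elane and 2.06 for Mpo. The order in these groups was nearly the same, but it was not shared by each group or library. In the MI + MSC group Ngp, at 4.38 per kilobase, lay below Lcn2 (27.9), Cd177 (10.1) and Ltf (5.84), and in the Blood + MSC group Cd177, at 34.7, lay below Camp (53.8), Padi4 (43.9) and Ltf (42.3). The Blood order also depended on Blood 22, since Blood 21 held 61.9 per kilobase of Ngp and 1.99 of Ltf, less than its 8.16 of Prtn3.

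The azurophil enzymes Mpo and Elane were at or near the detection limit. Myeloperoxidase (Mpo, ENSMUSG00000009350, chr11:87684407-87695239 in GRCm39, plus strand), which makes hypochlorous acid from hydrogen peroxide, was covered by 1, 9 and 8 reads in the MI libraries and by 8, 1 and 6 reads in the MI + MSC libraries. The Blood libraries held 0 and 4 reads and the Blood + MSC libraries 4 and 6. Expressed as normalized counts, the MI libraries held 8.40, 8.65 and 4.12, the MI + MSC libraries 5.41, 2.30 and 4.07, the Blood libraries 0 and 2.60 and the Blood + MSC libraries 1.05 and 1.01. Heart values of Mpo lay mostly above blood values, though the highest blood value exceeded the lowest heart value. The difference of the means was 1.23 on the log2 scale (two-sided exact permutation test of 6 against 4 libraries, p = 0.0190, 1 of 9 such tests, smallest possible p 0.00952). With no filter on low values, limma gave 1.23 ± 0.52 (SE) with an adjusted p of 0.0801. Over the same libraries, 917 olfactory and vomeronasal receptor genes, most of which serve the sensory neurons of the nose, took 821 to 11198 reads per 1000000 in the heart and 140 to 280 in blood. Mpo itself took 1.502 to 6.73 reads per 1000000 in the heart and 0 to 1.35 in blood, and the part of such low-level signal in the Mpo difference was not tested.

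Neutrophil elastase (Elane, ENSMUSG00000020125, chr10:79722081-79724051, plus strand), the main elastin-degrading protease of the azurophil granule, had fewer reads than Mpo. The MI libraries held 0, 6 and 3 of its reads, the MI + MSC libraries 2, 0 and 3, the Blood libraries 0 and 3 and the Blood + MSC libraries 2 and 5. The tissues overlapped, and the heart minus blood difference was 0.30 on the log2 scale (exact permutation test, p = 0.514). In Blood + MSC 24, the deepest library, the 6 Mpo and 5 Elane reads came from 8602711 reads on genes, which left both genes at 1.01 and 0.841 normalized counts.

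Proteinase 3 (Prtn3, ENSMUSG00000057729, chr10:79710310-79719008, plus strand, overlapping Plppr3 on the other strand) was the azurophil enzyme with the most reads in blood. The MI libraries held 8.40, 8.65 and 4.12 normalized counts and the MI + MSC libraries 3.38, 2.30 and 2.03. The Blood libraries held 14.1 and 9.10 and the Blood + MSC libraries 16.3 and 48.1. Each blood library was above each heart library, but the gap was narrow between Blood 22 (9.10, from 14 reads) and MI 19 (8.65, from 9 reads). Blood 21 had only 2 Prtn3 reads, while MI 13 had 1, so both values are coarse. The place of the Blood group above the MI group thus rests on few reads. The highest value lay in Blood + MSC 24, where 286 reads were counted, beside 62 for Blood + MSC 23. Prtn3 was lower in MI + MSC than in Blood + MSC by a log2 difference of -2.74 ± 0.63 (SE, limma adjusted p = 0.0163), a 6.68-fold difference of the means on this scale. In MI versus Blood the difference was -0.61 ± 0.63 (limma adjusted p = 0.474). Heart against blood differed by -1.67 ± 0.45 (limma adjusted p = 0.0113). Since Prtn3 entered the test through its blood level, the fit without a filter on low values is given beside these, in which the differences were the same and the adjusted p-values were 0.0224 for MI + MSC versus Blood + MSC and 0.0174 for heart against blood. The MI + MSC libraries held only 5, 1 and 3 Prtn3 reads, so these fold changes depend on the pseudocount of 2. The call in MI + MSC versus Blood + MSC was lost without MI + MSC 18, Blood + MSC 23 or Blood + MSC 24, with differences between -3.47 and -2.01 (limma adjusted p between 0.0534 and 0.235), and that of heart against blood was lost without Blood + MSC 24 (-1.31, limma adjusted p = 0.110). Prtn3 was higher in Blood + MSC 24 than in Blood + MSC 23 by 2.95-fold, with an exact counting interval of 2.24 to 3.95 that covers counting error only.

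Other genes of the azurophil compartment did not share a direction. Of 10 further azurophil genes, 7 were tested, and their median in MI versus Blood was -0.40, with 2 called lower and 0 higher, beside 13.5% and 21.2% of all tested genes. Rab27a, a small GTPase of granule release, and the lysosomal mannosidase gene Man2b1 fell, with log2 differences of -2.55 ± 0.48 and -1.89 ± 0.42 (limma adjusted p = 0.00295 and 0.00651). Man2b1 was also lower in MI + MSC than in Blood + MSC (-1.90, limma adjusted p = 0.0133), where Rab27a differed by -1.48 (limma adjusted p = 0.0615). Ctsc, whose product cleaves the propeptides of the granule serine proteases, differed by 0.51 ± 0.53 (limma adjusted p = 0.473). Serglycin (Srgn), the proteoglycan that retains these proteases in the granule, differed by -1.77 ± 0.64 (limma adjusted p = 0.0515). The elastase inhibitor gene Slpi (-3.03 ± 0.53) and the stefin gene Stfa2 (-2.76 ± 0.86) fell, whereas Serpina3n rose (3.67 ± 0.44) (limma adjusted p = 0.00196, 0.0294 and 2.2e-04). In all, 1 of the 8 tested genes of granule storage and protease control was called higher in MI than in Blood and 3 lower, beside 21.2% and 13.5% of all tested genes. In MI + MSC versus Blood + MSC, Serpina3n was again called higher and Slpi lower, beside 8.23% and 5.85% of all tested genes. Stfa2 and Serpinb6a, both called lower in MI than in Blood, were not called there (limma adjusted p = 0.0589 and 0.189).

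Ltf, Camp and Ngp, of the specific granule, had the largest standard errors of the 7 tested members, and their values spread widely among the blood libraries. Lactoferrin (Ltf, ENSMUSG00000032496, chr9:110848339-110871835, plus strand), an iron-binding protein, gave 42.0, 33.6 and 11.3 normalized counts in the MI libraries and 20.95, 29.8 and 11.5 in those of MI + MSC. The Blood libraries held 7.07 and 1321 and the Blood + MSC libraries 257 and 43.9. The heart libraries thus lay within a narrow band, while Blood 21 lay below all of them and Blood 22 far above. The reads behind the blood values were 1, 2033, 980 and 261. Cathelicidin (Camp, ENSMUSG00000038357, chr9:109676442-109678685, minus strand), the precursor of the antimicrobial peptide CRAMP, gave 8.40, 13.5 and 5.15 normalized counts in the MI libraries and 0.676, 6.89 and 2.03 in those of MI + MSC. The Blood libraries held 7.07 and 330.1 and the Blood + MSC libraries 84.3 and 9.59. The Camp reads in MI + MSC were 1, 3 and 3, so its fold changes against this group depend on the pseudocount. Neutrophilic granule protein (Ngp, ENSMUSG00000032484, chr9:110248815-110252086, plus strand), a cystatin-like protein of the specific granule, gave 0, 72.1 and 21.1 normalized counts in the MI libraries and 6.08, 9.18 and 2.71 in those of MI + MSC. The Blood libraries held 84.8 and 2022 and the Blood + MSC libraries 303 and 45.6. Its blood values overlapped with the heart through MI 19 alone, which exceeded Blood + MSC 24.

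Blood 22 carried far more transcript of these 3 genes than any other library. Relative to Blood 21, its level was 187-fold higher for Ltf (exact counting interval 33.5 to 7388, with 1 read in Blood 21), 46.7-fold for Camp (8.35 to 1849, also with 1 read) and 23.8-fold for Ngp (13.6 to 46.2). At the Ltf level of Blood 22, 187 reads rather than 1 would have been counted at the depth of Blood 21, so the gap between the libraries was larger than counting error. Relative to Blood + MSC 24, the deepest library, Blood 22 was 30.1-fold higher for Ltf, 34.4-fold for Camp and 44.3-fold for Ngp. Blood + MSC 23 was intermediate, at 5.86-fold, 8.79-fold and 6.64-fold the level of Blood + MSC 24. Cd177 and Lcn2 also fell from Blood 22 to Blood + MSC 23 and on to Blood + MSC 24, whereas Padi4 and Prtn3 were higher in Blood + MSC 24 than in Blood + MSC 23. Blood 22 over Blood + MSC 23 was 5.13-fold for Ltf, 3.91-fold for Camp, 6.68-fold for Ngp, 9.59-fold for Cd177 and 4.77-fold for Lcn2. Blood 22 over Blood 21 was 11.5-fold for Cd177, 3.66-fold for Lcn2, 3.14-fold for Padi4 and 0.644-fold for Prtn3. Blood + MSC 23 over Blood + MSC 24 was 1.48-fold for Cd177, 1.26-fold for Lcn2, 0.642-fold for Padi4 and 0.338-fold for Prtn3. The summed neutrophil markers were at 53457, 54436, 31691 and 21438 normalized counts in Blood 21, Blood 22, Blood + MSC 23 and Blood + MSC 24. They were thus nearly equal in the Blood libraries, and fell from Blood 22 to Blood + MSC 24 in the same order as Ltf, Camp and Ngp, by less, and their part in these levels was not tested. Of the single markers, Ly6g, the antigen of the bead enrichment, was at 198, 645, 57.0 and 41.2 normalized counts in the same order of libraries. The erythroid markers summed to 488, 9563, 2623 and 5686 in that order, and their part was not tested. The transcription factor gene Cebpe was nearly level across these libraries, at 28.3, 29.9, 37.3 and 31.0 normalized counts.

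**Figure D2:**
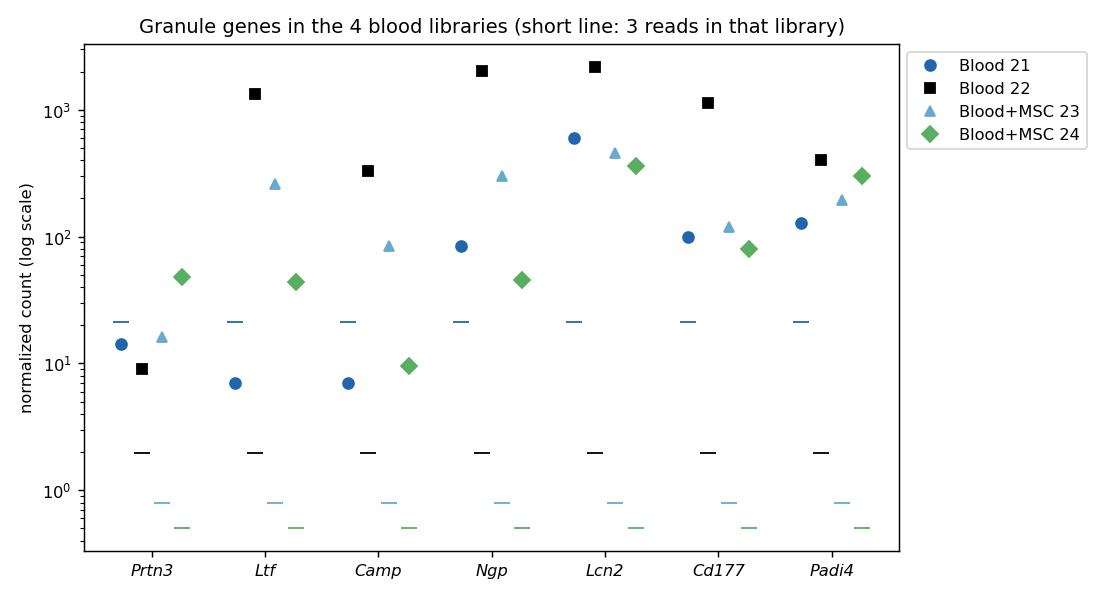
Normalized counts of the 7 tested granule genes (log axis) in the 4 blood libraries; symbols are libraries and the short line of the same colour marks the value of 3 reads in that library. Ltf, Camp and Ngp are highest in Blood 22 (1321, 330.1 and 2022), lower in Blood + MSC 23 and lower still in Blood + MSC 24, whereas Prtn3 is highest in Blood + MSC 24 (48.1).

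The MI versus Blood differences of Ltf and Camp in the limma fit rested on Blood 22. Ltf differed by -1.99 ± 1.54 in MI versus Blood (limma adjusted p = 0.334) and by -2.35 ± 1.54 in MI + MSC versus Blood + MSC (limma adjusted p = 0.323). Without Blood 22 the MI versus Blood difference of Ltf turned to 1.60, and without Blood 21 it was -5.59 (limma adjusted p = 0.00237). Camp differed by -2.39 ± 1.28 and -2.79 ± 1.28 in the same comparisons (limma adjusted p = 0.165 and 0.162), and its MI versus Blood difference turned to 0.21 without Blood 22 and was -4.99 without Blood 21 (limma adjusted p = 0.00714). On recovered reads with all libraries kept, both passed in MI versus Blood, with differences of -4.92 for Ltf and -4.58 for Camp in edgeR (edgeR adjusted p = 0.00536 and 0.00477) and of -4.46 and -4.17 in DESeq2 (DESeq2 adjusted p = 0.0126 and 0.0234). Ngp was lower in MI than in Blood by -4.80 ± 1.48 (limma adjusted p = 0.0285) and lower in MI + MSC than in Blood + MSC by -4.001 ± 1.48 (limma adjusted p = 0.0923). Without Blood 22, the MI versus Blood difference of Ngp was -2.53 and no longer passed (limma adjusted p = 0.255), nor did it without MI 13, where no Ngp read was found (-3.34, limma adjusted p = 0.0811). Ngp passed in MI + MSC versus Blood + MSC without MI 13, Blood 21 or Blood 22 (limma adjusted p = 0.0415, 0.0475 and 0.0485). Ltf and Camp also passed in that comparison without Blood 21 (limma adjusted p = 0.0423 and 0.0362) or Blood 22 (limma adjusted p = 0.0444 and 0.0458), with the same differences, since it uses neither library's level. Over all libraries, the heart minus blood difference was -4.40 ± 1.05 for Ngp, -2.59 ± 0.91 for Camp and -2.17 ± 1.09 for Ltf (limma adjusted p = 0.00642, 0.0377 and 0.127). Camp, like Prtn3, entered the test through its blood level, and the fit without a filter gave it the same difference with a limma adjusted p of 0.0221. The exact permutation test over libraries gave p = 0.0190, 0.0667 and 0.181 for Ngp, Camp and Ltf. The Camp call was lost without any 1 of MI 13, MI 20, MI + MSC 15, MI + MSC 18, Blood 22 and Blood + MSC 23 (limma adjusted p between 0.0602 and 0.191), while Ltf passed without Blood 21 (-3.97, limma adjusted p = 5.7e-04).

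Lipocalin-2 (Lcn2, ENSMUSG00000026822, chr2:32274645-32278264, minus strand), which starves bacteria of iron by binding their siderophores, showed the tissue difference in every library. Cardiac levels without MSCs were 50.4, 175 and 115 normalized counts, and those with MSCs were 75.0, 126 and 18.3. Blood levels were 593 and 2171 without MSCs and 455 and 361 with them, so that the lowest blood library was above the highest heart library. Lcn2 was lower in MI than in Blood by -3.47 ± 0.76 on the log2 scale, 11.1-fold (limma adjusted p = 0.00623). It was also lower in MI + MSC than in Blood + MSC by -2.80 ± 0.76, 6.95-fold (limma adjusted p = 0.0327). Leaving out any 1 library kept the heart minus blood difference between -3.60 and -2.67. The Lcn2 call was lost in MI versus Blood without Blood 22 (-2.54, limma adjusted p = 0.0522). In MI + MSC versus Blood + MSC it was lost without MI + MSC 15, MI + MSC 18, Blood + MSC 23 or Blood + MSC 24, with differences between -2.996 and -2.03 (limma adjusted p between 0.0625 and 0.238).

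Other genes of the specific granule were in part called lower as well. Of 12 further genes, 10 were tested and 7 were called lower in the MI group than in Blood (median -2.39), beside 13.5% of all tested genes. The collagenase gene Mmp8 (-3.70 ± 0.67), the annexin A1 gene Anxa1 (-3.42 ± 0.58) and the haptoglobin gene Hp (-3.32 ± 0.63) fell most (limma adjusted p = 0.00251, 0.00174 and 0.00313). Of the 10, 3 were called lower in MI + MSC than in Blood + MSC, beside 5.85% of all tested genes. Mmp8 shared the high value of Blood 22, with 1519 and 4783 normalized counts in the Blood libraries and 958 and 480.0 in those of Blood + MSC. Its heart values lay between 92.4 and 347. Genes of gelatinase granules and secretory vesicles, which are formed last, had 5 of 9 tested members called lower in MI than in Blood and 0 higher (median -0.99), beside 13.5% and 21.2% of all tested genes. Mmp25, Fpr1 and Mmp9 led these, at -3.27 ± 1.04, -3.16 ± 0.73 and -2.96 ± 0.66 (limma adjusted p = 0.0323, 0.00772 and 0.00657). None of this list was called in MI + MSC versus Blood + MSC, beside 5.85% of all tested genes called lower. There Mmp25, Fpr1 and Mmp9 differed by -1.48, -1.68 and -2.11 (limma adjusted p = 0.358, 0.140 and 0.0536). The median is the value of Itgam, which differed by -0.06 in MI + MSC versus Blood + MSC (limma adjusted p = 0.929).

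**Figure D3:**
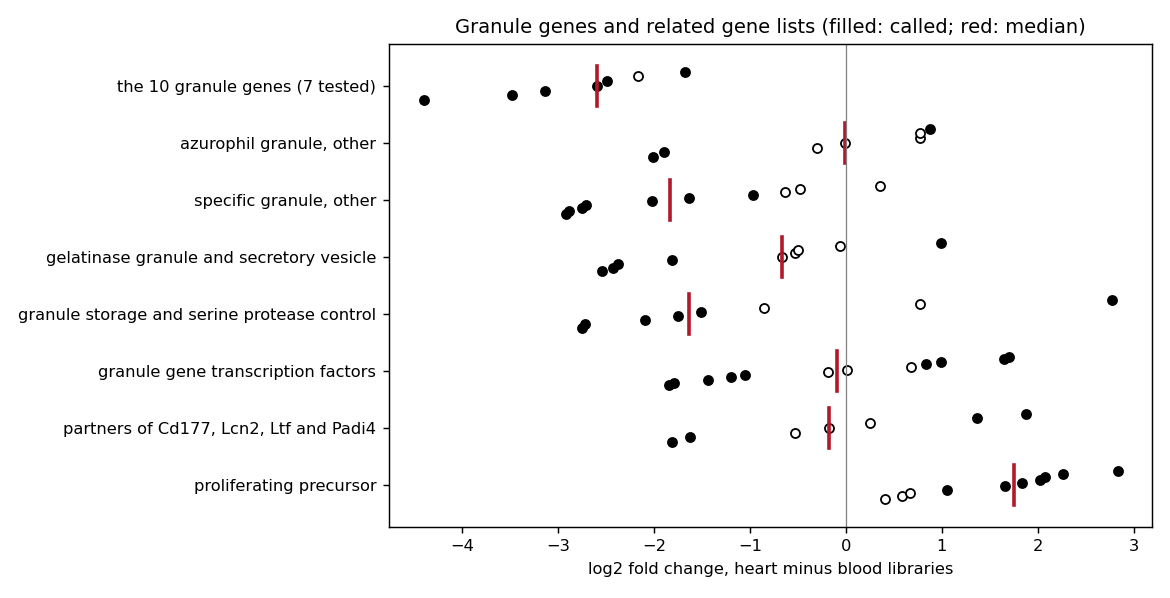
Log2 fold changes (heart minus blood libraries, limma) of the 7 tested granule genes and of the tested genes of 7 related lists, with 1 point per gene, filled points for called genes and a red line at the list's median. The 7 tested granule genes all lie left of 0 and the other specific granule genes mostly so, with medians of -2.59 and -1.83, and the precursor proliferation genes lie right of it, with a median of 1.75.

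Cd177 (ENSMUSG00000052212, chr7:24443408-24459747, minus strand) encodes a surface glycoprotein of neutrophils that binds PECAM-1 and, in human cells, presents proteinase 3. Cardiac levels were 16.8, 62.5 and 34.5 normalized counts in the MI libraries and 26.4, 39.0 and 21.7 in those of MI + MSC. Blood levels were 98.9 and 1133 without MSCs and 118 and 80.1 with them. No heart library reached the lowest blood library, and Blood 22 was again far above the rest. Cd177 was lower in MI than in Blood by -3.26 ± 0.81, 9.57-fold (limma adjusted p = 0.0115), but without Blood 22 the difference was -1.51 and did not pass (limma adjusted p = 0.0781). In MI + MSC versus Blood + MSC it was -1.72 ± 0.81 (limma adjusted p = 0.175), and it passed without Blood 21 or Blood 22 (limma adjusted p = 0.0273 and 0.0280). Of the 7 tested partner genes of Cd177, Lcn2, Ltf and Padi4, 1 was called higher and 3 lower in MI than in Blood, beside 21.2% and 13.5% of all tested genes. The β2 integrin gene Itgb2 and the integrin αM gene Itgam, through whose product Cd177 signals, fell, with log2 differences of -1.64 ± 0.33 and -0.99 ± 0.35 (limma adjusted p = 0.00377 and 0.0456). Pecam1 differed by 1.42 ± 0.73 (limma adjusted p = 0.149), and Lrp1, a receptor for lactoferrin, rose by 2.43 ± 0.43 (limma adjusted p = 0.00206). In MI + MSC versus Blood + MSC, Itgb2 was again lower (-1.61, limma adjusted p = 0.00881), while Itgam and Lrp1 differed by -0.06 and 0.30 (limma adjusted p = 0.929 and 0.672). Pecam1 differed by 2.34 there (limma adjusted p = 0.0546), and its Blood 21 and Blood 22 values were 586 and 50.7 normalized counts. Over all libraries, Pecam1 (1.88 ± 0.52, limma adjusted p = 0.0132) and Lrp1 were called higher and Itgb2 and Fpr2 lower. The shares of all tested genes were 25.3% and 18.1%.

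Padi4 (ENSMUSG00000025330, chr4:140472808-140501939, minus strand, overlapping Gm69576 on the other strand) encodes the enzyme that citrullinates histones when neutrophil extracellular traps are formed. It had the steadiest tissue difference of the 7 tested genes. Cardiac levels were 42.0, 15.4 and 19.04 normalized counts in the MI libraries and 12.2, 16.1 and 19.7 in those of MI + MSC. Blood levels were 127 and 400 without MSCs and 194 and 302 with them. The highest heart value, in the shallow library MI 13, rested on 5 reads and was still below the lowest blood value. Padi4 was lower in MI than in Blood by -3.17 ± 0.52, 9.02-fold, and lower in MI + MSC than in Blood + MSC by -3.79 ± 0.52, 13.8-fold (limma adjusted p = 0.00135 and 0.00125). It passed in both comparisons whichever library was left out, with adjusted p-values of at most 0.00750 and 0.0224. Its relative Padi2 differed by -0.46 ± 0.53 in MI versus Blood (limma adjusted p = 0.520).

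**Figure D4:**
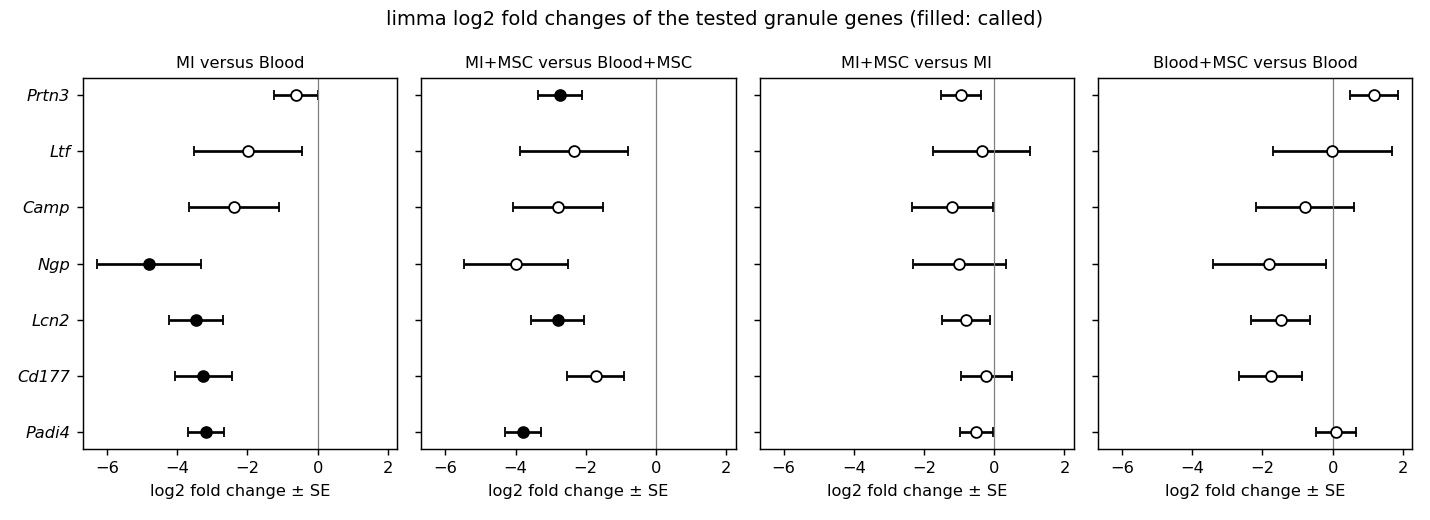
Log2 fold changes ± SE (horizontal axis) of the 7 tested granule genes in the 4 comparisons, from the limma fit over 10 libraries; filled points were called. Points of both tissue comparisons lie below 0 for each gene and Padi4 has the shortest error bars, while no point of the 2 MSC comparisons is filled.

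Relative to the neutrophil markers, the tissue difference of the 7 tested members was smaller and the tissues overlapped over all libraries. Within the mice with MSCs, Prtn3, Ltf, Camp, Ngp, Lcn2 and Padi4 were lower in each MI + MSC library than in each Blood + MSC library, as was so for 2.94% of all tested genes, and Cd177 overlapped. Within those without MSCs, none of the 7 was so, beside 0.303% of all tested genes. Prtn3 and Camp had entered the test only through their blood levels, which favours their separation in mice with MSCs. Per 1000 summed neutrophil marker counts, Padi4 took 0.673 to 11.3 counts in heart libraries and 2.38 to 14.1 in blood libraries, Cd177 1.63 to 5.50 and 1.85 to 20.8, and Lcn2 3.18 to 15.4 and 11.1 to 39.9. Ltf took 1.16 to 11.3 and 0.132 to 24.3, Camp 0.0442 to 2.25 and 0.132 to 6.06, and Ngp 0 to 6.35 and 1.59 to 37.1. Prtn3 took 0.0962 to 2.25 and 0.167 to 2.24. Mpo took 0.0962 to 2.25 in the heart and 0 to 0.0477 in blood, and Elane 0 to 0.508 and 0 to 0.0392, both from at most 9 reads per library. The marker sums in the denominator were mostly lower in the heart, which raises such ratios there. The neutrophil markers themselves were lower in the heart, with 10 of 14 called lower in the MI group than in Blood, beside 13.5% of all tested genes (median -3.03), close to the members' median of -3.17. In MI + MSC versus Blood + MSC, 3 of the 14 markers were called lower and 1 higher (beside 5.85% and 8.23% of all tested genes), with a median of -1.28. The part of neutrophil content in the members' differences was not tested further.

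**Figure D5:**
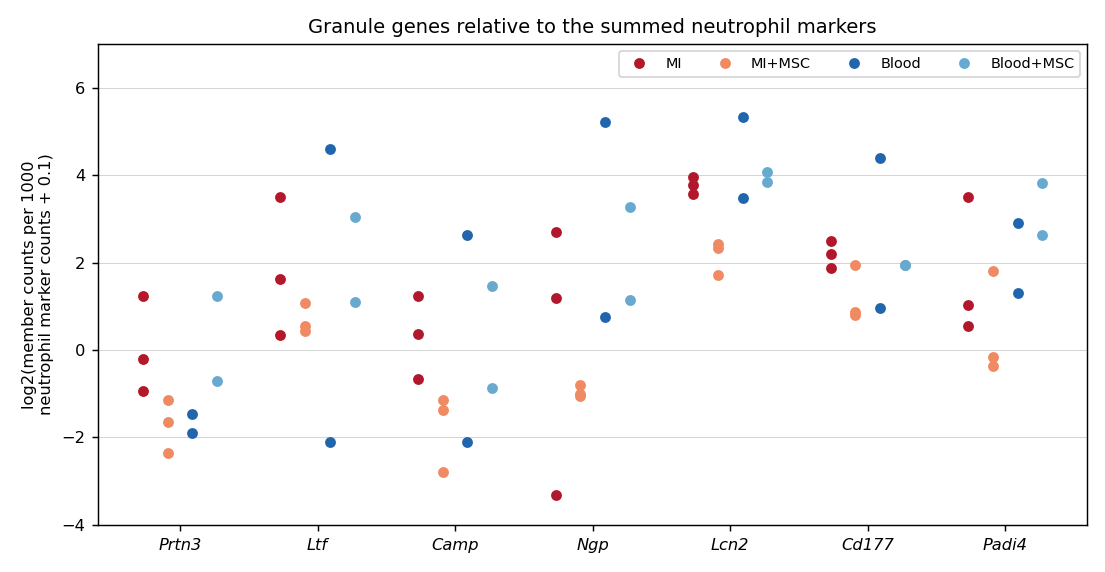
Counts of the 7 tested granule genes per 1000 summed counts of the 14 neutrophil markers, as log2(value + 0.1), with 1 point per library coloured by group. Heart and blood points overlap for each gene over all libraries, while in mice with MSCs only Cd177 overlaps between the tissues. Lcn2 takes 11.8 to 15.4 in MI and 3.18 to 5.29 in MI + MSC, a contrast without a test in which the marker sums also differ.

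Whether MSCs given at a remote site went with a change of granule transcripts was addressed within each tissue. In the heart, limma called 0 of the 7 members between MI + MSC and MI, and 0 passed an unadjusted p of 0.05, while edgeR and DESeq2 on recovered reads also called 0. Ngp had an unadjusted p under 0.05 in edgeR (-2.88, edgeR adjusted p = 0.526), beside 8.38% of all tested genes. Limma and edgeR called 0% of all tested genes in this comparison and DESeq2 0.684%, and 8.01% in limma had an unadjusted p under 0.05. Since the 7 genes were measured in the same libraries, their signs are not separate results. All 7 fitted differences were below 0, with a median of -0.81 beside -0.01 for all tested genes. The largest were -1.19 ± 1.15 for Camp, -1.002 ± 1.33 for Ngp and -0.95 ± 0.56 for Prtn3 (limma adjusted p = 0.747, 0.806 and 0.656). Lcn2 differed by -0.81 ± 0.68, Padi4 by -0.51 ± 0.46, Ltf by -0.36 ± 1.38 and Cd177 by -0.23 ± 0.73, each with a limma adjusted p of 0.719 or more. Leaving out 1 library could turn the direction for Ngp (-2.46 to 0.15) and Cd177 (-0.68 to 0.21), and Lcn2 ranged from -1.38 to -0.05. The groups overlapped for each member except Prtn3, where all 3 MI + MSC values were below all 3 MI values. Such a separation in the lower direction was seen for 9.6% of all tested genes.

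Relative to neutrophil markers, Lcn2, Camp and Prtn3 were each lower in all 3 MI + MSC libraries than in all 3 MI libraries, as was so for 2.84% of all tested genes. Lcn2 stood at 13.5, 15.4 and 11.8 counts per 1000 marker counts without MSCs against 4.91, 5.29 and 3.18 with them. Camp stood at 2.25, 1.18 and 0.529 against 0.0442, 0.288 and 0.354, and Prtn3 at 2.25, 0.761 and 0.423 against 0.221, 0.0962 and 0.354, both from few reads. These ratios were singled out after their values were seen and have no test. The marker sums in the denominator were 3732, 11361 and 9726 without MSCs against 15280, 23875 and 5753 with them.

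In blood, limma called 0 of the 7 members between Blood + MSC and Blood, and 0 had an unadjusted p under 0.05. An unadjusted p under 0.05 was reached by 5 members in edgeR (all but Ltf and Padi4, beside 7.41% of all tested genes), 2 in DESeq2 (Lcn2 and Cd177, beside 6.5%) and 5 in limma without Blood 21 (all but Prtn3 and Padi4, beside 3.43%). EdgeR called 0 and DESeq2 called 1 (Cd177, -2.66, DESeq2 adjusted p = 0.0325), beside 1.52% of all tested genes called lower by DESeq2. Over all tested genes limma called 0%, and 7.34% had an unadjusted p under 0.05. The fitted differences were -1.80 ± 1.62 for Ngp, -1.77 ± 0.89 for Cd177, -1.48 ± 0.83 for Lcn2 and -0.79 ± 1.40 for Camp (limma adjusted p between 0.679 and 0.927). Padi4 differed by 0.10 ± 0.57, Ltf by -0.00 ± 1.69 and Prtn3 by 1.18 ± 0.69 (limma adjusted p = 0.981, 1 and 0.704). With 2 libraries a group and a gap between Blood 21 and Blood 22, the directions for Ltf, Camp, Ngp and Padi4 depended on the libraries kept. Leaving out 1 library gave -3.39 to 1.80 for Camp, -4.07 to 0.47 for Ngp and -0.72 to 0.92 for Padi4. Without Blood 22 the difference of Ltf was 3.59 (limma adjusted p = 0.0398, where 9.64% of all tested genes were called higher), and without Blood 21 it was -3.60 (limma adjusted p = 0.904). Both Blood + MSC values of Lcn2 were below both Blood values, and both Blood + MSC values of Prtn3 were above both Blood values. Separation of these groups was seen in 15.4% of all tested genes in the lower and 21% in the higher direction.

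The difference between the MSC differences of heart and blood was tested as an interaction. Limma called 0 of the 7 members, 1 had an unadjusted p under 0.05, and edgeR and DESeq2 called 0, while 0% of all tested genes were called by limma and by edgeR and 0.173% by DESeq2, and 7.26% in limma had an unadjusted p under 0.05. That member in limma was Prtn3, with an interaction of -2.13 ± 0.89 (limma adjusted p = 0.630). The tissue and MSC comparisons share libraries and are not independent of each other.

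The transcription factors behind the granule program were mixed between tissues. Of 14 such genes, 12 were tested, and in MI versus Blood 2 were called higher (Klf4 and Runx1, limma adjusted p = 0.00168 and 0.0391) and 4 lower, beside 21.2% and 13.5% of all tested genes. The lower ones were Cebpd (-2.40 ± 0.58), Cebpe (-2.26 ± 0.71), Spi1 (-2.10 ± 0.53) and Lmo4 (-1.78 ± 0.34), with limma adjusted p-values of 0.00998, 0.0309, 0.0117 and 0.00330. Cebpe, the regulator of specific granule genes, was at 0 to 13.8 normalized counts over the heart libraries, below each of its 4 blood values. Such a separation of the tissues in the lower direction was seen for 14% of all tested genes. Cebpe entered the test largely through its blood level, so its call rests partly on the filter, and Blood 21 held 4 of its reads. Of 10 tested genes of proliferating precursors, 5 were called higher in MI than in Blood and 0 lower, beside the same 21.2% and 13.5% of all tested genes (Kif11 3.01 ± 0.71, Mki67 2.83 ± 0.40 and Birc5 2.79 ± 0.78, limma adjusted p = 0.00908, 6.2e-04 and 0.0185). Birc5 entered the test through its heart level, with 0 to 5.72 normalized counts in blood, so its call is partly fixed by the filter. Rrm2 and Ccnb1 also stayed below 10 in each blood library. Mki67 stood at 188 to 416 normalized counts over the heart libraries and 29.7 to 47.3 over the blood libraries. In MI + MSC versus Blood + MSC, Mki67 alone of the 10 was called (2.83, limma adjusted p = 0.00148), beside 8.23% of all tested genes called higher. Markers of other cell types also moved. The endothelial markers summed to 650 to 2833 in the heart and 49.6 to 756 in blood. Those of fibroblasts and mural cells summed to 1297 to 2272 and 503 to 1003. Their part in the precursor gene differences was not tested. In the 2 MSC comparisons no gene of these lists was called by limma, beside 0% of all tested genes.

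Over the 10 libraries, the members differed in how closely they tracked Camp, by the Pearson correlation of log2(normalized count + 2), given as a description of libraries that share tissue and depth. Ltf reached 0.93, Cd177 0.88, Ngp 0.86, Lcn2 0.80, Padi4 0.73, Prtn3 0.38, Elane 0.09 and Mpo -0.25, the last 2 at or near the detection limit. The non-member genes most like Camp were Bltp1 (0.96), Ralgapa1 (0.94), Ralgapa2 (0.93), Clip1 (0.92) and Megf9 (0.92).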

How the data were processed

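RNA-seq was performed on 10 libraries of Ly6G+ cells. According to the methods and labels, the authors trimmed reads with Trimmomatic, removed PCR duplicates with Picard, mapped to GRCm39 with STAR, used featureCounts for stranded counting of genes, removed mitochondrial reads and divided by DESeq2 size factors. The deposited values are therefore signal values: read counts over 1 size factor per library. The deposited table named as raw held the same values and was not used. Whole reads were recovered: 100% of values were whole multiples (tolerance 1e-06) of the step of a single read. Of 28185 gene identifiers, 27906 were found in the GENCODE annotation of GRCm39, which gave names, coordinates and exon lengths.

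Main tests used limma 3.58.1 (lmFit, eBayes with trend, R 4.3.3) on log2(normalized count + 2), fitting the 4 group means to all 10 libraries, over the 11549 genes whose mean reached 10, Benjamini-Hochberg adjustment over these, and calls at an adjusted p under 0.05 and an absolute log2 difference of at least 0.5 (adjusted p alone for the interaction). Fold changes are on this scale and understate those of low genes. Exact permutation tests used 6 heart and 4 blood libraries. Counting intervals are exact at 95% and cover counting error only. Alternatives were other pseudocounts, filters and scalings, edgeR 4.0.16 and DESeq2 1.42.0 on recovered reads, fits of the compared groups alone and leaving out libraries; leaving out both shallowest libraries was added after the data were seen. The fits were tested on simulated data.

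All 10 members are named, and related genes only as called examples with the largest changes or where a member's result turns on them. Members and lists were chosen with earlier results of these data known. Bpi, Ctsc, Slpi, Itgam and Fpr2 stand on 2 lists, Mmp9 is also a neutrophil marker and Pecam1 also an endothelial marker. Likeness was computed for Camp and not reported for Mpo, which had at most 9 reads per library. Depth and its limits are given in the report.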

Additional observations from a re-analysis of the deposited data

Results flagged for a closer look

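The Prtn3 difference between mice with and without MSCs pointed in opposite directions in the 2 tissues, and the interaction of MSC and tissue drew attention for that reason. Each of the 3 MI + MSC libraries was below each of the 3 MI libraries, and both Blood + MSC libraries were above both Blood libraries. Such separations were seen for 9.6% of all tested genes in the heart (lower) and 21% in blood (higher). They rested on few Prtn3 reads, with 1, 9 and 8 in MI, 5, 1 and 3 in MI + MSC and 2 and 14 in Blood. The interaction was -2.13 ± 0.89 (SE) on the log2 scale, with a limma adjusted p of 0.630, so it failed the correction over all tested genes. Leaving out 1 library at a time moved it between -2.86 and -1.40. The groups held 2 or 3 libraries, too few to tell within a group whether a single library was outlying.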

How the results depend on the processing

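No paired analysis was possible because the groups share no replicate numbers in the labels. In MI versus Blood, 2 members rather than 4 were called when only these groups were fitted (5.27% rather than 13.5% of all tested genes called lower), and 1 to 6 when a library was left out (1 without Blood 22, Padi4; 6 without Blood 21; 9.85% and 14% of all tested genes). In MI + MSC versus Blood + MSC, 3 members became 7 with edgeR, 6 with DESeq2, 7 with only the groups compared and 7 without the 2 shallowest libraries, while the share of all tested genes called lower rose from 5.85% to 15.6%, 11.2%, 15.9% and 18.9%, and 1 to 7 when a library was left out (1 without MI + MSC 18, Blood + MSC 23 or Blood + MSC 24, beside 2.13%, 0.338% and 1.1% of all tested genes; 7 without Blood 21 or Blood 22, beside 10.5% and 10.4%). In Blood + MSC versus Blood, 0 became 1 with DESeq2 and 1 without the 2 shallowest libraries (Cd177 in both, -3.51 in the latter, beside 1.52% and 0.026% of all tested genes called lower), and 0 to 1 when a library was left out (Ltf, without Blood 22). The heart versus blood count stayed between 5 and 7 when a library was left out, beside 10.8% to 21.1% of all tested genes. In Blood + MSC versus Blood, the Ltf difference reversed to 0.061 with a pseudocount of 1, 0.30 when scaled by library total and 0.034 with TMM scaling, and that of Padi4 to -0.14 with edgeR, -0.16 with DESeq2 and -0.72 without the 2 shallowest libraries. Leaving out 1 library gave ranges that crossed 0 for Ltf (-5.59 to 1.60) and Camp (-4.99 to 0.21) in MI versus Blood, for Ngp (-2.46 to 0.15) and Cd177 (-0.68 to 0.21) in MI + MSC versus MI, and for Ltf (-3.60 to 3.59), Camp (-3.39 to 1.80), Ngp (-4.07 to 0.47) and Padi4 (-0.72 to 0.92) in Blood + MSC versus Blood. The cause was not tested. Where a group kept 1 library, it was assumed to vary like the other groups. Scaling by library total moved the median of all genes in MI versus Blood from 0.15 to 0.65. Pseudocount 5 and no filter kept the direction and call of each of the 36 tested values. A fit of only the groups compared was not run for the heart versus blood contrast and the interaction, which use all groups. Low depth limits Mpo, Elane, Prtn3 and Camp in the heart, and each gene in MI 13 and Blood 21.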

Other observations

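Camp, Ngp and Ltf lie within about the same stretch of chromosome 9 (chr9:109676442-110871835 in GRCm39), and the genes between them were compared with them. Of the 14 tested non-member genes in that interval, limma called 5 higher and 4 lower in heart than in blood libraries, beside 25.3% and 18.1% of all tested genes, with differences from -2.11 to 6.41 and a median of 0.66, whereas the 3 granule genes had differences of -2.59, -4.40 and -2.17. None of the 14 was called by limma in MI + MSC versus MI or in Blood + MSC versus Blood, beside 0% of all tested genes.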
